A study of Homo sapiens with 5 samples.

Results

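The regions described here are 387 IRF3 peaks of BT549 cells given polyI:C that lay away from the ends of protein-coding genes and had no counterpart in the IRF3 list of cells with active Smad3. BT549 is an established human cell line from a basal-like breast tumour, and polyI:C is a synthetic double-stranded RNA that imitates viral RNA. The cells were stably infected with lentiviral vectors and carried either HA (the control) or constitutively active Smad3 (caSmad3). Both IRF3 libraries came from polyI:C-transfected cells that received no TGF-beta. Of the Smad3 libraries, those of HA cells came from cells stimulated with TGF-beta (1 ng/ml, 1.5 h) after mock or polyI:C transfection, and that of caSmad3 cells from polyI:C-transfected cells without TGF-beta. Each of these 5 groups is 1 library, so no difference between conditions was tested. The peaks were chosen by their positions in both IRF3 lists. A peak of HA cells was kept when it shared no base with an IRF3 peak of caSmad3 cells (HA-only) and its centre lay more than 1 kb from both ends of every protein-coding gene (distal). Of the 4125 IRF3 peaks of HA cells, 710 were HA-only, which is 17.2%, and 387 of these 710 were among the 1019 distal peaks of the list. These counts describe the choice and are not results. The caSmad3 list is longer, with 8067 IRF3 peaks, and read depth is unknown for each library, so that a missing peak is not a measurement of missing binding.

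IRF3 is a transcription factor that rests in the cytoplasm until sensors of viral RNA lead to its phosphorylation, after which it enters the nucleus and binds DNA elements built from repeats of GAAA. Its best known targets are the interferon beta gene and antiviral genes such as the IFIT family. Smad3 carries the TGF-beta signal to the nucleus and often binds at enhancers together with other factors such as AP-1. Enhancers are regulatory elements that can lie far from the gene they act on, inside or outside gene bodies.

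The genome sequence was not used here, so bases are known only where a peak met a RefSeq start window (GRCh38.p14), which covers 250 bases before and 50 after a transcript start. This was so for 28 of the 387 peaks (7.24%, 95% Clopper-Pearson interval 4.86 to 10.3), which met 35 windows of 32 genes. For 22 of the 28 a protein-coding gene was among these genes, with a transcript that starts more than 1 kb inside the outermost gene ends. The sequences shown next are those at IFIT3, ISG20, RIPK1 and SOD2, which are described with the gene lists and runs, and at LOC105371912, whose peak also met Smad3 peaks. Each is the part of the peak before the start, on the strand of the gene. In the first 3, capitals mark AANNGAAA, an IRF half-element, on either strand. In that of LOC105371912 they mark the AP-1 element TGANTCA, and that of SOD2 holds neither.

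In hg38 coordinates the IFIT3 stretch lies at chr10:89332279-89332528 (plus strand), ISG20 at chr15:88638811-88639015 (plus), RIPK1 at chr6:3068186-3068377 (plus), the lncRNA gene LOC105371912 at chr17:78315641-78315715 (plus) and SOD2 at chr6:159693242-159693311 (minus).
IFIT3: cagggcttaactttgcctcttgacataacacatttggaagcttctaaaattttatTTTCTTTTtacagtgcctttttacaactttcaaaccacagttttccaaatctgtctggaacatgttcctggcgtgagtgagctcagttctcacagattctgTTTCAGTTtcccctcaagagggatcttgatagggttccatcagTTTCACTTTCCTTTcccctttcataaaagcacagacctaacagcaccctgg
ISG20: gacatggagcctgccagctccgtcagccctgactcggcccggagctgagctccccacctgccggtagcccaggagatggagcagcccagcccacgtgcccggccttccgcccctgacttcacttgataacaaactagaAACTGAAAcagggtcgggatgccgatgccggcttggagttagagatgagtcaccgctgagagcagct
RIPK1: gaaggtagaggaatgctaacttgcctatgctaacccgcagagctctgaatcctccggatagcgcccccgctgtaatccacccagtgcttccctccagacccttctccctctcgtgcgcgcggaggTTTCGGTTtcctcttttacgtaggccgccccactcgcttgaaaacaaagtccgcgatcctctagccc
LOC105371912: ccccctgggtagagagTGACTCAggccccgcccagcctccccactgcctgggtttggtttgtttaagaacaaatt
SOD2: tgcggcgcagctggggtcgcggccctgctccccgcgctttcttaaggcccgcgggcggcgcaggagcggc

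The IFIT3 stretch holds 4 matches to AANNGAAA and 3 to the longer GAAANNGAA, which overlaps it. ISG20 and RIPK1 hold 1 of each. ISG20 also holds 1 AP-1 match. AANNGAAA was found in 8 of the 35 windows (22.9%, 10.4 to 40.1) and in 22.8% of all 35116 RefSeq windows. GAAANNGAA was found in 4 (11.4%, 3.2 to 26.7, against 8.11% of all windows), which are those of IFIT3, ISG20 and a pair of overlapping windows of RIPK1. TGANTCA was found in 5 (14.3%, 4.81 to 30.3, against 7.71%) and the short Smad element CAGAC in 15 (42.9%, 26.3 to 60.6, against 45.3%). These matches were counted over whole windows, also where part of a window lay outside the peak. The AP-1 matches in windows of LOC102723480 and SLC1A3 did not lie within the peak, and the window of COMMD6 shared only 9 bases with its peak. All motifs were searched on both strands, and windows of neighbouring starts share bases.

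The HA-only distal peaks were narrow and most lay far from gene ends. Their median width was 148 bases (quartiles 106 and 221, range 99 to 612), beside 215 bases for the 632 distal peaks that both IRF3 lists share and 130 bases for the 323 HA-only peaks at gene ends. The narrowest width of the list, 99 bases, was that of 69 of the 387 (17.8%) and of 5.54% of shared distal peaks. The median distance of the centre from the nearest protein-coding gene end was 38214 bases, beside 14927.2 for shared distal peaks. A total of 108 peaks (27.9%) lay more than 100 kb from such an end, and 102 (26.4%) between 1 and 10 kb. The farthest, of 99 bases on chromosome 16, lay 3236747 bases from one. Peaks of 99 bases on chromosome 13 lay 2017004 to 2920198 bases from one, and some on chromosome 17 up to 2697482. Whether reads map uniquely at such places was not examined, so the position of these peaks may be uncertain. They are not read as enhancers. Width and distance come from the libraries that chose the peaks and are given as a description. Inside a protein-coding gene lay 190 of the 387 (49.1%, 44.0 to 54.2), close to the 48.3% (44.3 to 52.2) of shared distal peaks. No exon or intron positions were used. All intervals are 95% Clopper-Pearson intervals over counts of peaks or windows and cover counting error only. They treat neighbouring peaks of 1 locus as independent. No reads were counted here, and the PCR reads behind the peaks are not independent molecules.

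**Figure D1:**
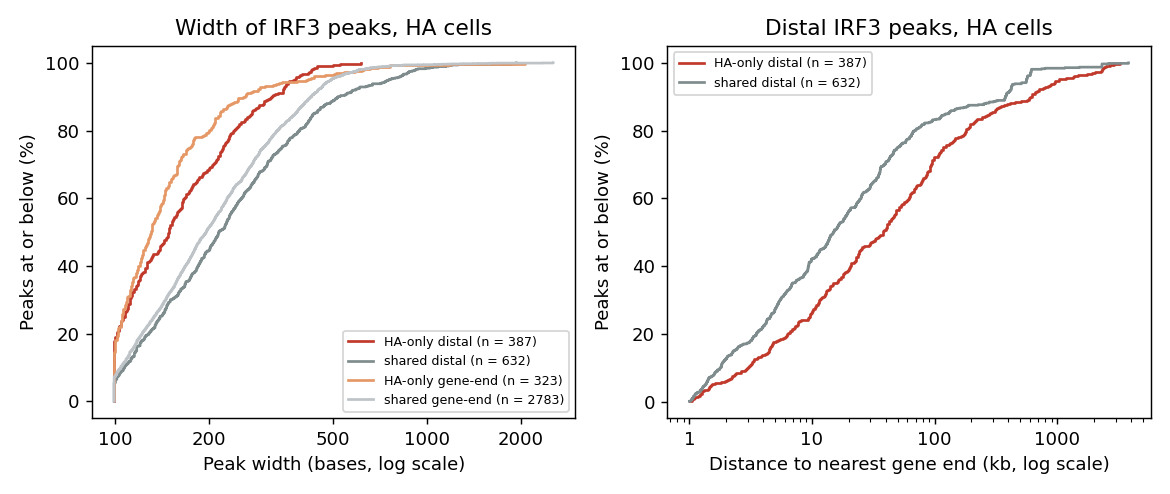
Cumulative share of IRF3 peaks of HA cells by width (left, 4 classes of peaks) and by distance of the centre from the nearest protein-coding gene end (right, distal classes), on log axes. The HA-only distal curve lies left of the shared distal curve in width (medians 148 and 215 bases) and right of it in distance (38214 and 14927.2 bases).

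At the 1 kb limit, the HA-only peaks nearest to it were those at MAT2A (1014 bases from the gene end), SLC2A1 (1044) and SRGAP2B (1046), and on the other side those at DDIT4 (990), NOCT (950) and IFNB1 (949). At the overlap limit, the shortest gaps to an IRF3 peak of caSmad3 cells were 6 bases at SLC2A1, 23 near ADAMTS4 and 23 near BLID, and the smallest overlaps among shared distal peaks were 4 bases at IRF2BP2, 8 near DDRGK1 and 12 in ELAVL2. The gap to the nearest caSmad3 IRF3 peak had a median of 111567 bases. It was at most 200 bases for 25 peaks (6.46%) and at most 1 kb for 44 (11.4%), while 188 (48.6%) had one within 100 kb.

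The largest group of HA-only distal peaks lay on chromosome 10 in the IFIT genes, which encode interferon-induced antiviral proteins. IFIT2 (89302046 to 89309271) held 6 of them between 89303200 and 89307758, with widths from 126 to 612 bases that sum to 2024 of the 4559 bases spanned. They lay between wider HA-only gene-end peaks of 1182 and 2071 bases at the lower and upper end of IFIT2. Counted in bases from the lower gene end, these ran from -254 to 927 and from 5951 to 8021. The 6 peaks ran from 1154 to 5712, so neighbours were close, and whether they are separate sites was not tested. The widest of all 387 peaks, 612 bases, was the one at 89307147 to 89307758. A further 4 followed at IFIT3 (89327997 to 89340968). Of these, 501 bases lay over the internal transcript start whose sequence is shown above (89332257 to 89332757), 99 and 112 bases lay elsewhere inside the gene, and 106 bases lay 1058 bases above it, where above and below mean higher and lower coordinates. At IFIT1 a peak of 128 bases (89404889 to 89405016) lay inside the gene and 9552 bases below IFIT5, and was counted for both genes. The long RefSeq span of LIPA, a lysosomal lipase gene, reaches across this region and held 12 of the peaks. All but 1 of them are those at the IFIT genes. The other, of 162 bases (89251669 to 89251830), overlapped a transcript start of LIPA itself. No peak of the caSmad3 IRF3 list or of the 3 Smad3 lists lay within 10 kb of IFIT1, IFIT2, IFIT3 or IFIT5, and the nearest IRF3 peak of caSmad3 cells was 239081 to 340685 bases from the peaks at these genes.

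**Figure D2:**
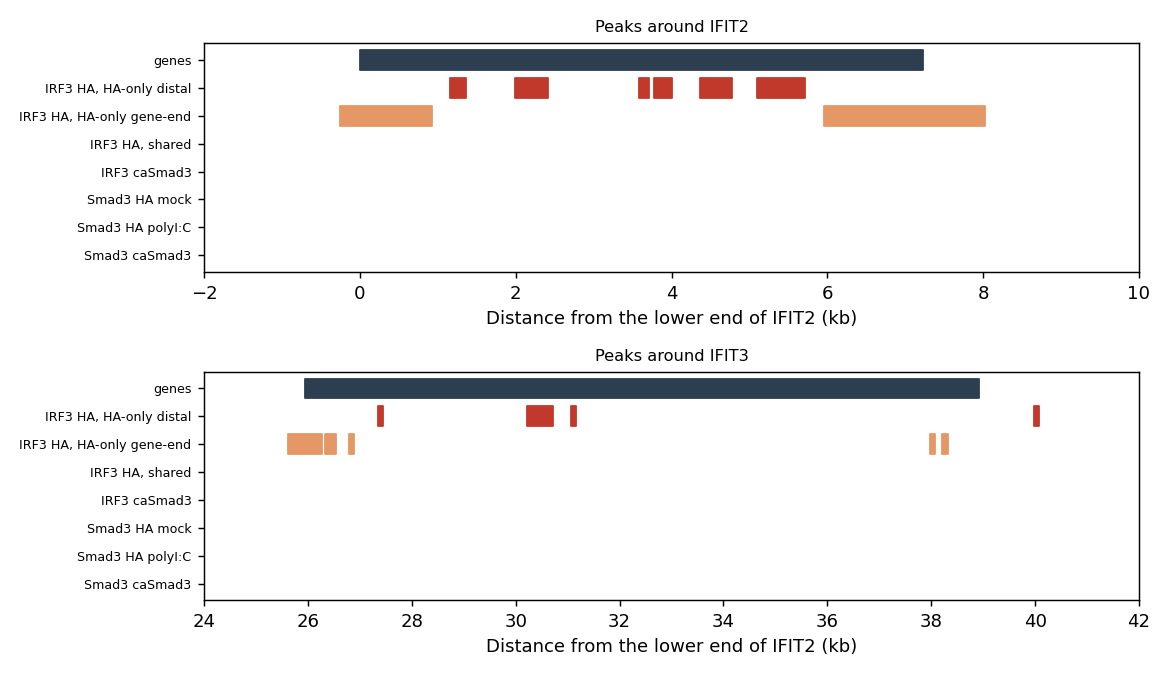
Peaks of all 5 lists around IFIT2 (top) and IFIT3 (bottom), by distance from the lower end of IFIT2 in kb, with bars drawn to the width of each gene or peak. The 6 HA-only distal peaks of IFIT2 lie between its gene-end peaks, 4 more lie at IFIT3, and the tracks of the other 4 lists and of shared IRF3 peaks are empty.

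Near IFNB1, the interferon beta gene on chromosome 9, 1 HA-only distal peak of 354 bases lay 6721 bases below the gene (21070030 to 21070383). Inside IFNB1 or within 10 kb lay 5 HA-only gene-end peaks. Such counts, here and below, can include peaks at ends of neighbouring genes. ISG20, which encodes an exonuclease that degrades RNA, had 2 peaks on chromosome 15, of 147 bases (88638521 to 88638667) and 333 bases (88638811 to 88639143). The wider one covers the transcript start shown above, 3384 bases inside the outermost gene end. With these, 6 of 20 direct IRF3 target genes (30.0%) had an HA-only distal peak inside or within 10 kb, resting on 14 peaks, where 255 of 20037 protein-coding genes (1.27%) had one. ZC3HAV1 was the only gene of that list with a shared distal peak (5.0%, against 2.33% of all genes). The list was chosen with results of these data known, and the IFIT genes are neighbours, so this count is a description.

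Of 57 interferon-stimulated genes beyond the direct targets, 2 had an HA-only distal peak (3.51%), and the share with a shared distal peak was also 3.51%. HERC6, of a family of interferon-induced ubiquitin ligases, held 1 of 135 bases on chromosome 4 (88391815 to 88391949). An HA-only gene-end peak also lay inside HERC6 or within 10 kb. CMPK2, a mitochondrial nucleotide kinase gene, had 1 of 228 bases that lay 7174 bases below it on chromosome 2 (6833152 to 6833379), with no other IRF3 peak of either list within 10 kb. None of 19 RNA and DNA sensing genes and none of 19 antigen presentation genes had one. Both lists also had 0 shared distal peaks, and 0 HA-only distal peaks were found near 36 mesenchymal and matrix genes, 18 epithelial and 18 leukocyte markers. At the 1.27% of all genes, a list of this size would hold fewer than 1 gene, so these counts of 0 carry little information.

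Among 27 NF-kB and inflammatory genes, NFKBIZ and TNIP1 had HA-only distal peaks (7.41%, beside 1.27% of all genes). Shared distal peaks lay at 3 genes of that list, NFKBIZ, TNIP1 and NFKB2 (11.1%, beside 2.33%). NFKBIZ, which encodes a nuclear IkB protein, held 3, each 99 bases wide, and 1 shared distal peak. Of the 3, those at 101850006 to 101850104 and 101850466 to 101850564 on chromosome 3 lay 250 and 710 bases from a caSmad3 IRF3 peak, and the third, at 101834289 to 101834387, lay 15168 bases from one. The peak at TNIP1, an inhibitor of NF-kB signalling, was 150 bases wide and lay 6594 bases above the gene on chromosome 5 (151094279 to 151094428), with ANXA6 as its nearest gene. SOD2, the mitochondrial superoxide dismutase and a known NF-kB target, held 3 peaks within 1196 bases on chromosome 6 (159692116 to 159693311). The uppermost, of 238 bases (159693074 to 159693311), lay 223 bases from a caSmad3 IRF3 peak and covered the start shown above. Inside SOD2 or within 10 kb also lay 2 shared gene-end peaks and 1 shared distal peak. Whether these 2 lay at ends of SOD2 or of another gene was not examined.

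Of 26 AP-1 and immediate early genes, EGR1, IER2 and ZFP36 had a peak (11.5%, beside 1.27% of all genes), in each case inside a short gene. The same share of the list had a shared distal peak (JUN, IER2 and ZFP36L1, 11.5%, beside 2.33%), with 5 shared peaks against 3 HA-only ones. EGR1, a zinc finger transcription factor gene, held 345 bases on chromosome 5 (138467862 to 138468206), ZFP36, which encodes an mRNA-destabilising protein, 309 bases on chromosome 19 (39408027 to 39408335), and IER2 99 bases (13153537 to 13153635). All 3 genes also had a shared gene-end peak and at least 1 HA-only gene-end peak inside or within 10 kb. Such gene-end peaks may lie at the end of a neighbouring gene. A caSmad3 IRF3 peak lay 2037, 982 and 100 bases from the HA-only distal peaks of EGR1, ZFP36 and IER2. Of 35 TGF-beta/Smad targets, CDKN1A, a cell cycle inhibitor gene, held a peak of 101 bases on chromosome 6 (36678746 to 36678846), and ANGPTL4, a lipoprotein lipase inhibitor gene, had one of 99 bases that lay 1983 bases below it on chromosome 19 (8362074 to 8362172). These are 5.71% of the list, and CCN1 and CDKN2B, also 5.71%, had shared distal peaks. The cell death list of 31 genes had RIPK1 (3.23%), a kinase of TNF receptor signalling, and 0 genes with a shared distal peak. Its peak of 300 bases (chromosome 6, 3068186 to 3068485) covers the start shown above and lay 312 bases from a caSmad3 IRF3 peak. Of 20 housekeeping genes, YWHAZ (5.0%) had a shared distal peak and an HA-only one of 121 bases on chromosome 8 (100950661 to 100950781), which a Smad3 peak of caSmad3 cells overlapped.

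The 10 widest HA-only distal peaks were at IFIT2 (612 and 427 bases) and IFIT3 (501 bases) and at 7 further places without a gene of the lists within 10 kb. Inside ARHGAP26, which encodes a GTPase-activating protein, lay 525 bases on chromosome 5 (142950745 to 142951269), 180630 bases from the nearest gene end. Inside FNDC3A lay 505 bases on chromosome 13 (49044819 to 49045323), over the pseudogene RAD17P2. Inside NR6A1, an orphan nuclear receptor gene, lay 442 bases on chromosome 9 (124683033 to 124683474), over the lncRNA gene MIR181A2HG. DMD, the dystrophin gene on the X chromosome, held 442 bases (32452127 to 32452568), 887041 bases from its nearest end. In the IFIT genes the peaks lay within a few kb of the ends, which the short length of these genes fixes.

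Outside genes, a peak of 435 bases on chromosome 10 (28730403 to 28730837) lay 47471 bases above BAMBI, which encodes a decoy receptor of the TGF-beta family. One of 424 bases on chromosome 9 (107826283 to 107826706) lay 336514 bases above KLF4, a transcription factor gene. The remaining one, of 425 bases, lay inside SLC71A1 on chromosome 1 (100065319 to 100065743). Over these 7 places the nearest caSmad3 IRF3 peak was between 23489 bases (NR6A1) and 1798998 bases (DMD) away, and none overlapped a Smad3 peak.

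Most HA-only distal peaks stood alone. Joined where neighbours lay within 10 kb, the 387 peaks made 357 loci, of which 335 held a single peak, 18 held 2 and 4 held 3 or more. These 4, at IFIT2, IFIT3, SOD2 and KIF13B, held 16 peaks. KIF13B, a kinesin motor gene on chromosome 8, held 3 within 1672 bases (29169956 to 29171627) and a further one of 104 bases (29195652 to 29195755), with 0 IRF3 peaks of caSmad3 cells inside the gene or within 10 kb. Pairs lay inside BCL6, a transcriptional repressor gene, DICER1, which encodes the nuclease that matures microRNAs, SQOR, POLR2H, DPYD and FAF1, each pair within 310 to 2817 bases. The nearest protein-coding gene of 74 of the 387 peaks (19.1%, 15.3 to 23.4) had a shared IRF3 peak at a gene end, beside 23.7% (20.5 to 27.2) for shared distal peaks. That of 34 (8.79%, 6.16 to 12.1) had an HA-only gene-end peak, beside 3.32% (2.07 to 5.03). The second contrast includes the IFIT cluster, where peaks share a gene, and it uses the lists that chose the peaks.

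The Smad3 lists were not used to choose the peaks, but the comparison is not independent of the choice. A shared peak is by definition a place that also gave a peak in caSmad3 cells. A higher overlap of shared peaks with a further list, above all that of caSmad3 cells, can therefore follow from the choice. In these libraries a smaller share of HA-only distal than of shared distal peaks overlapped each Smad3 list. For both lists of HA cells the classes came close among narrow peaks, and the contrast was smaller away from non-coding gene ends. Smad3 peaks of caSmad3 cells overlapped 45 of the 387 (11.6%, 8.61 to 15.2), beside 295 of 632 shared distal peaks (46.7%, 42.7 to 50.7) and 30.7% of all IRF3 peaks of HA cells. In the Smad3 list of polyI:C-transfected HA cells with TGF-beta the counts were 13 (3.36%, 1.8 to 5.68) and 120 (19.0%), with 5.60% of all peaks. For mock-transfected HA cells given TGF-beta they were 5 (1.29%, 0.421 to 2.99) and 89 (14.1%, 11.5 to 17.0), with 3.03% of all peaks. In any Smad3 list there were 48 (12.4%, 9.29 to 16.1) and 297 (47.0%, 43.0 to 51.0), with 31.0% of all peaks. HA-only peaks at gene ends gave 7.43%, 0.31% and 0 (of 323, which allows up to 1.14% at the upper bound) for the lists of caSmad3 cells, polyI:C-transfected and mock-transfected HA cells. The 2783 shared peaks at gene ends gave 32.4%, 3.49% and 1.11%. For both lists of HA cells these were close to the shares of HA-only distal peaks, so a low overlap there was not particular to HA-only peaks. These contrasts were not tested, since peaks of 1 library are not replicates.

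**Figure D3:**
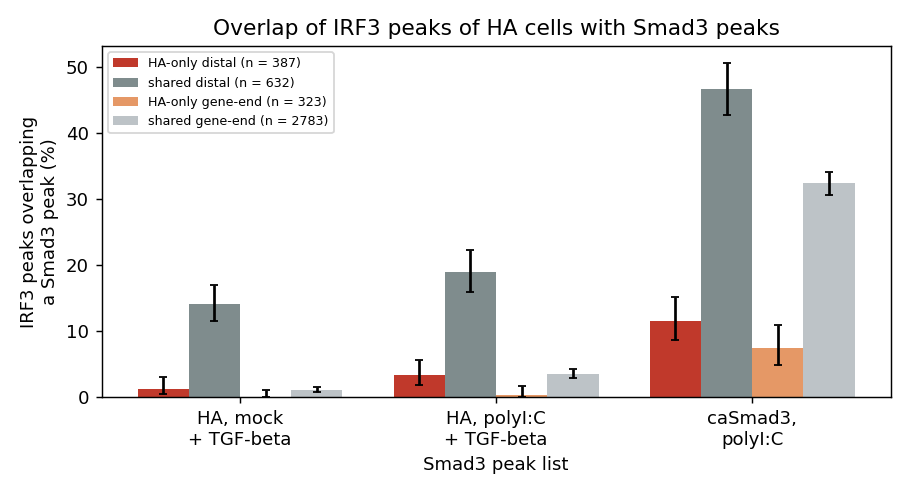
Share of IRF3 peaks of HA cells that overlap a peak of each Smad3 list, for 4 classes of IRF3 peaks, with bars from 0 and error bars as 95% Clopper-Pearson intervals. HA-only distal peaks stand at 1.29%, 3.36% and 11.6%, below shared distal peaks at 14.1%, 19.0% and 46.7% over all widths. Shared gene-end peaks stand at 1.11%, 3.49% and 32.4%.

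Peak width and nearness to non-coding genes differed between the classes. The shares were therefore also taken within strata of each alone, but not of both together. Within peaks of 200 bases or less, any Smad3 list overlapped 12.0% of HA-only distal peaks (8.34 to 16.5) and 26.9% of shared ones (21.8 to 32.4), and above 200 bases 13.3% (7.82 to 20.7) and 63.3% (58.0 to 68.4). Among distal peaks that also lay more than 1 kb from non-coding gene ends, the shares were 11.4% (8.21 to 15.2) and 39.2% (33.7 to 44.9). There the mock list of HA cells overlapped 1.46% (0.475 to 3.37) of HA-only and 7.19% (4.56 to 10.7) of shared distal peaks. The polyI:C list of HA cells overlapped 3.21% (1.61 to 5.67) and 11.8% (8.38 to 15.9), and the caSmad3 list 10.5% (7.46 to 14.2) and 38.6% (33.1 to 44.3). By list, among peaks of 200 bases or less, the mock list of HA cells overlapped 1.87% of HA-only distal peaks (0.611 to 4.32) and 2.47% of shared ones (1.0 to 5.03). The polyI:C list of HA cells overlapped 3.37% (1.55 to 6.3) and 5.65% (3.27 to 9.02), so that for both lists the intervals of narrow peaks overlap. The caSmad3 list overlapped 11.6% (8.03 to 16.1) and 26.9% (21.8 to 32.4) of narrow peaks. Above 200 bases the mock list overlapped 0 of 120 HA-only distal peaks (upper bound 3.03%) and 23.5% of shared ones, the polyI:C list of HA cells 3.33% and 29.8%, and the caSmad3 list 11.7% and 62.8%. The contrast for the lists of HA cells thus lay mainly among wide peaks, where nearness to non-coding genes was not held fixed. Seen from the Smad3 side, the HA-only distal peaks met 46 of 6041 Smad3 peaks of caSmad3 cells (0.761%), 13 of 786 of HA cells given polyI:C (1.65%) and 5 of 353 of mock-transfected cells (1.42%). Of the 45 peaks with Smad3 in caSmad3 cells, 28 had no caSmad3 IRF3 peak closer than 10 kb and 12 had one within 1 kb. At these 28 places the caSmad3 cells gave a Smad3 peak and no IRF3 peak nearby.

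By combination, 34 of the 48 peaks were met by the caSmad3 list alone, 7 by both polyI:C lists, 4 by all 3 lists, 2 by the polyI:C list of HA cells alone and 1 by the mock list alone. The 2 are the peak of 333 bases at ISG20, which shares 57 bases with a Smad3 peak (88638750 to 88638867), and one of 360 bases that lay 21946 bases above TARBP1 on chromosome 1 (234501125 to 234501484). Among the 4 in all 3 lists were peaks with KIF13B, SLC25A37 and NCOA3 as nearest genes, with widths of 104, 147 and 126 bases. The 1 in the mock list alone was a peak of 99 bases that lay 32731 bases above GUSB. Peaks of combinations with 5 or fewer are named after their values were seen.

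Other wide peaks with Smad3 lay inside PDE4B, a cAMP phosphodiesterase gene (346 bases, chromosome 1, 65812123 to 65812468, in both polyI:C lists), over the lncRNA gene MIR100HG on chromosome 11 (244 bases, 122180528 to 122180771, wholly inside a Smad3 peak of caSmad3 cells) and near PPIAL4A on chromosome 1 (283 bases, 120942800 to 120943082, in both polyI:C lists). Those with BBS12 (358 bases), IBTK (352), SUCNR1 (350), EPHA3 (275) and KCNQ5 (271) as nearest genes were met by the caSmad3 list alone and lay 38332 to 2068599 bases from a gene end. PPIAL4A, NOTCH2NLB and SRGAP2B belong to families of near-identical copies on chromosome 1, so the position of peaks at them is uncertain. The peak with SOCS3, a feedback inhibitor of cytokine signalling, as nearest gene (154 bases, chromosome 17, 78315641 to 78315794) lay whole inside Smad3 peaks of both polyI:C lists and covers the start of LOC105371912 with the AP-1 letters shown above.

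Positions relative to non-coding genes were not part of the choice. Within 1 kb of a non-coding gene end lay 44 of the 387 peaks (11.4%, 8.38 to 15.0) and 326 of the 632 shared distal peaks (51.6%, 47.6 to 55.5), a difference that was not tested. Of the 44, 24 were nearest to lncRNA genes, 7 to pseudogenes, 6 to transcribed pseudogenes, 4 to snRNA genes and 3 to microRNA genes. None was nearest to an rRNA, tRNA or snoRNA gene, whereas shared distal peaks had 18, 4 and 7 of these and 57 at snRNA genes. Beyond 1 kb from non-coding gene ends, HA-only peaks made up 343 of 649 distal peaks (52.9%, 48.9 to 56.7). By distance from a protein-coding gene end they made up 27.7% of those at 1 to 10 kb, 36.0% at 10 to 50 kb, 53.6% at 50 to 100 kb and 50.5% beyond.

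By chromosome, the share of distal peaks that were HA-only was lowest on 21, with 4 of 60 (6.67%, 1.85 to 16.2), and 17, with 23 of 100 (23.0%, 15.2 to 32.5). On chromosome 1 it was 42 of 141 (29.8%, 22.4 to 38.1). Chromosome 13 had 13 of 19 (68.4%, 43.4 to 87.4), X had 15 of 25 (60.0%, 38.7 to 78.9) and chromosome 10, with the IFIT genes, 29 of 58 (50.0%, 36.6 to 63.4). Against the share over all chromosomes (387 of 1019), the intervals of 21 and 17 lay below it, those of 6 (56.4%, 39.6 to 72.2), 13 and X lay above it, and those of the other chromosomes with at least 10 distal peaks spanned it. On 21 and 17, 56 and 77 distal peaks were shared, of which 21 and 19 lay more than 1 kb from non-coding gene ends. Each peak was counted singly, also where several lie close together in 1 locus. The intervals take no account of this, so a few dense loci can shift the share of a chromosome. How far they do so was not examined, and the shares are not read as traits of whole chromosomes.

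**Figure D4:**
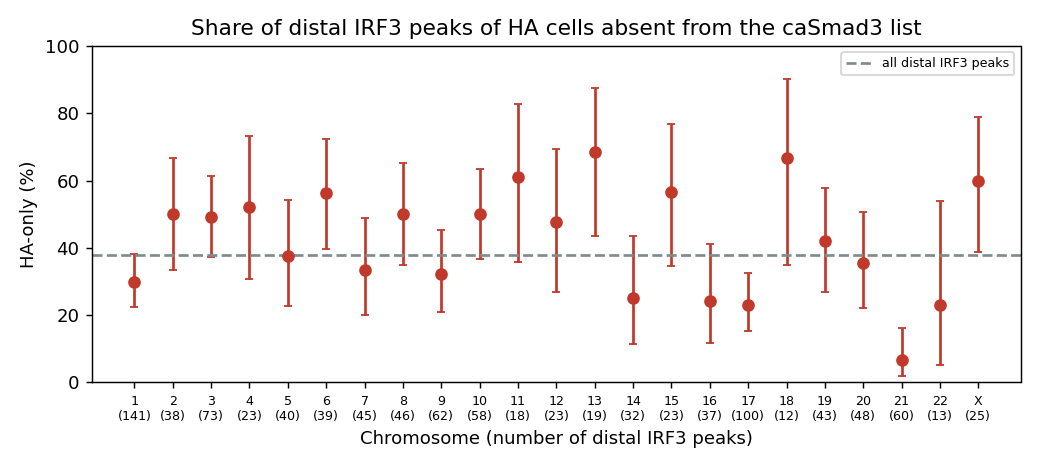
Share of distal IRF3 peaks of HA cells that were HA-only, by chromosome with at least 10 distal peaks (number in brackets), with 95% Clopper-Pearson intervals. The dashed line marks the share over all chromosomes (387 of 1019). Chromosomes 21 (6.67%) and 17 (23.0%) lie below it and 6 (56.4%), 13 (68.4%) and X (60.0%) above it with their whole interval. Peaks that lie close together were counted singly, which the intervals do not take into account.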

How the data were processed

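ChIP-seq of IRF3 and Smad3 was done in BT549 cells, and the authors deposited 1 list of peak positions (chromosome, start, end, name) per library, with no score or read count. Bowtie2 2.2.2.6, MACS2 2.1.0 and hg38 are named in the submitters' processing notes. Peak-calling thresholds, input controls and handling of duplicates were not given in the sources used here. Starts were converted to 1-based positions. Overlap means at least 1 base. Distances run from the peak centre to the nearer end of 20037 protein-coding genes of RefSeq (GRCh38.p14, the coordinates of hg38). Genes count as near a peak when it lies inside them or within 10 kb. Named were the 10 widest peaks, genes of 12 lists (326 genes, all matched) with a peak nearby, the 10 widest peaks with Smad3, runs of at least 3 peaks, genes holding at least 3, and the peaks next to each limit. Further peaks were added after their values were seen. The peaks and lists were chosen with earlier results of these data known. Shares have 95% Clopper-Pearson intervals (scipy 1.17.1, Python 3.11.15). Depth is unknown, and no test was made with 1 library per group. The overlap code was tested on simulated data and against bedtools. Because no genome was used, motifs were searched in RefSeq start windows only, where whole peaks had been planned. Some items are counted but not reported by name here.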

Additional observations from a re-analysis of the deposited data

How the results depend on the processing

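The number of HA-only distal peaks stayed between 318 and 437 under 9 alternatives, among them 343 when a caSmad3 peak within 1000 bases counted as shared, 420 when 50% of the peak had to be covered, 319 beyond 5 kb from gene ends and 357 when peaks within 10 kb counted as 1 locus. When at least 50% of the IRF3 peak had to be covered by Smad3, the share met by any Smad3 list was 8.53% in place of 12.4%, and that met by Smad3 of caSmad3 cells 8.27% in place of 11.6%. Both changes follow from the stricter overlap. Leaving out peaks of the narrowest width gave a median width of 164.5 bases in place of 148. Peaks near a gene of the lists numbered 27, and 42 with a window of 100 kb. Of the 34 alternatives, the other 30 stayed within the interval of the main share or within 1.5 times the main count. Among them, the Smad3 shares over 1 kb from non-coding gene ends were chosen after seeing the data. The planned motif search in whole peaks was not run. No paired analysis was possible because each group holds 1 library, and for the same reason no replicate could be left out. Unknown depth limits every statement on a peak that is not listed.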

Other observations

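Beyond 10 kb, further genes of the lists had an HA-only distal peak. At IRF1, an interferon regulatory factor gene, a peak of 381 bases on chromosome 5 (132464209 to 132464589) lay 17020 bases below the gene over the lncRNA gene CARINH, 25984 bases from an IRF3 peak of caSmad3 cells. At OASL, an antiviral gene, one of 148 bases (chromosome 12, 121060146 to 121060293) lay 20900 bases above the gene, and a further one of 184 bases lay 18530 bases above IFNB1 (chromosome 9, 21096472 to 21096655). PMAIP1, which encodes a pro-apoptotic protein, had 126 bases lying 13970 bases below it (chromosome 18, 59885901 to 59886026), and APOL6 had 172 bases lying 20358 bases below it (chromosome 22, 35627917 to 35628088), where MB is the nearest gene. B2M, the light chain of MHC class I, had 299 bases lying 10928 bases above it (chromosome 15, 44729073 to 44729371), where TRIM69 is the nearest gene. TNC and ITGB1, matrix and adhesion genes, had peaks of 115 and 176 bases that lay 10736 bases below and 47041 bases above them and overlapped a Smad3 peak of caSmad3 cells. Which gene, if any, such a peak acts on was not tested.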
